A study of Mus musculus and Bos taurus with 26 samples.

Results

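The comparison described here asks what a second injection, of mRNA for the histone demethylase Kdm5b, does to the transcripts of mouse embryos that already carry mRNA for mutant Hdac1. It rests on 4 of the 26 libraries of the series, chosen by their labels: 2 of late 2-cell embryos, 36 h after fertilization, that received mutant Hdac1 mRNA as zygotes and Kdm5b mRNA in both blastomeres at the early 2-cell stage, and 2 of embryos treated alike except that water replaced the Kdm5b mRNA. Both groups therefore carry mutant Hdac1 and had 2 injections. Of the 27988 genes in the mouse table, 14222 had at least 1 FPKM (fragments scaled by transcript length and library size) in at least 2 of these 4 libraries and were tested. For reference, other late embryos received mutant Hdac1 mRNA, WT (wild-type) Hdac1 mRNA or water once, as zygotes, and WT Hdac1 embryos were also taken at 24 h; further late embryos received mutant or WT Hdac2 mRNA, or were kept in the deacetylase inhibitor FK228 or its solvent DMSO. Each group has 2 libraries of whole embryos. Neither the strain nor the mutation in Hdac1 is given in the sources used here, and nothing says whether the replicates came from separate cultures. The p-values rest on the spread between replicates over all 22 mouse libraries, which also include mutant Hdac1 embryos at 24 h. That spread may be technical, and the p-values speak of these libraries alone.

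Histone deacetylases such as HDAC1 and HDAC2 remove acetyl groups from histones and act within the SIN3, NuRD and CoREST corepressor complexes. KDM5B removes methyl groups from lysine 4 of histone H3 and, like its relatives KDM5A and KDM5C, acts against trimethylation of that residue, a mark of promoters. The mouse embryo switches on most of its own genes at the late 2-cell stage, when broad H3K4 trimethylation inherited from the oocyte is removed and genes for ribosomes and RNA processing are switched on.

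The Kdm5b libraries held the transcript they were labelled with. Kdm5b (chromosome 1, 134560171 to 134635285, plus strand, GRCm38) stood at 594 and 638 FPKM after Kdm5b mRNA, against 61.3 and 74.0 FPKM after water, and it was higher by 3.17 ± 0.25 on the log2(FPKM + 1) scale (± SE, adjusted p = 8.23e-06, limma). Embryos injected once with water held 143 and 124 FPKM, those with WT Hdac1 116 and 126 FPKM, and those with mutant Hdac1 56.6 and 43.7 FPKM. The water group thus lay below the embryos without mutant Hdac1 and the Kdm5b group above them. The values cannot tell injected mRNA from the embryo's own.

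The load of Hdac1 mRNA did not pass the test as different. Hdac1 (chromosome 4, 129516104 to 129542713, minus strand) stood at 824 and 859 FPKM after Kdm5b mRNA, against 917 and 805 FPKM after water, so the groups overlapped (log2 difference −0.03 ± 0.18, adjusted p = 0.959, limma). Both lay under the 4952 and 4612 FPKM of embryos that received mutant Hdac1 once, and above the 92.2 and 89.3 FPKM of embryos with water alone. Hdac2 was at 72.7 and 69.9 FPKM after Kdm5b mRNA, against 56.8 and 59.4 FPKM after water (0.29 ± 0.14, adjusted p = 0.315). The other H3K4 demethylases of the same family did not pass the test either. Kdm5a was at 35.6 and 29.3 FPKM after Kdm5b mRNA, against 24.6 and 21.8 FPKM after water (0.46 ± 0.22, adjusted p = 0.31), and Kdm5c was at 24.0 and 24.7 FPKM, against 17.02 and 16.7 FPKM after water (0.51 ± 0.20, adjusted p = 0.194). Kdm5d was under 1 FPKM in all 4 libraries and was not tested.

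**Figure D1:**
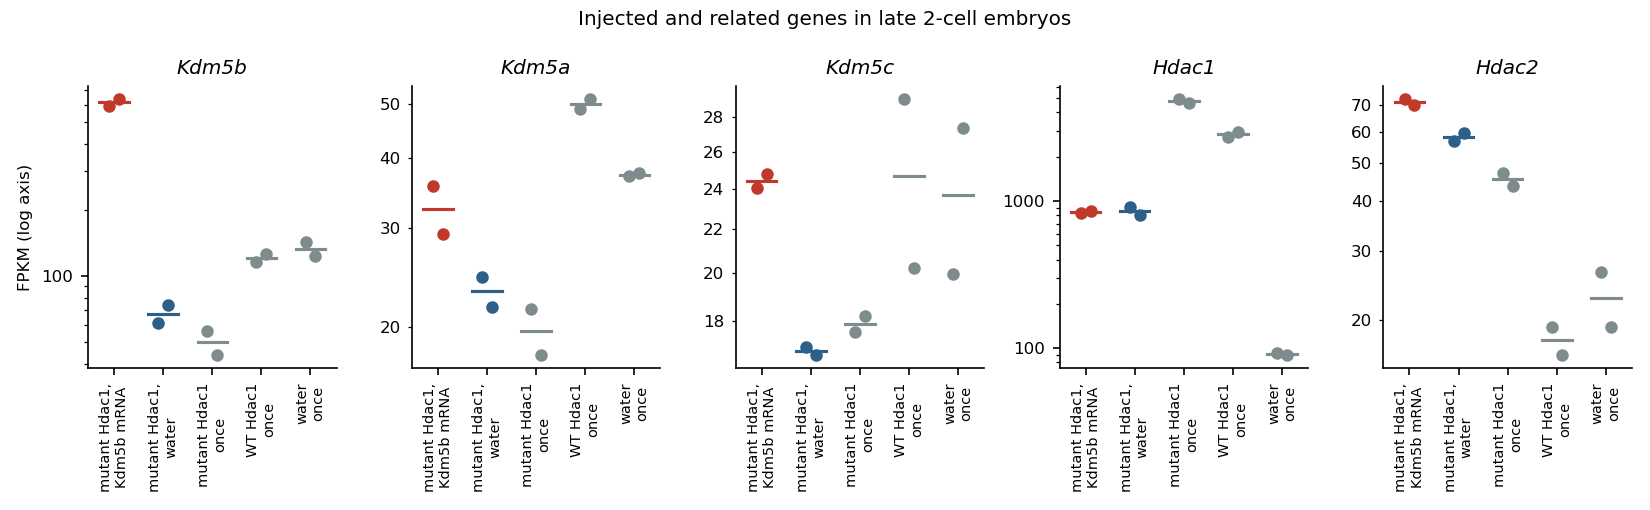
FPKM (log axis, a scale of its own for each gene) of Kdm5b, Kdm5a, Kdm5c, Hdac1 and Hdac2 in single libraries (points) of late 2-cell groups, with the mean as a line, the Kdm5b group first and the water group after it. Kdm5b is at 594 and 638 FPKM in the Kdm5b group, against 61.3 and 74.0 FPKM in the water group, while Hdac1 overlaps between them.

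Beside Kdm5b itself, the transcripts called higher after Kdm5b mRNA included genes of ribosome formation, translation and RNA processing, and those called lower included keratin 8, Zscan4 copies and tissue-restricted genes that are higher with mutant than with WT Hdac1. Of the 14222 genes, 89 were higher and 139 lower at an adjusted p under 0.05 (limma on log2(FPKM + 1), Benjamini-Hochberg adjustment), which is 1.60% of genes called, 0.626% higher and 0.977% lower. At an unadjusted p under 0.05 there were 1196 higher and 1183 lower genes. The groups did not overlap for any of the 228 genes called, but this was so for 51.4% of all genes tested, 25.9% higher and 25.5% lower. Where groups do not overlap, leaving out 1 library cannot reverse a sign. The signs kept in such fits were therefore fixed in advance and lend no support. A 2-fold difference on this scale was reached by 19 of the 89 higher and 99 of the 139 lower calls, and the median over all genes was 0.000638. When any single library was left out, 1 to 26 genes were called higher and 2 to 46 lower, and every reported call that was still tested kept its sign (189 to 225 of them). Without water replicate 2 there were 26 and 46, without water replicate 1 there were 4 and 2, without Kdm5b replicate 1 there were 2 and 9, and without Kdm5b replicate 2 there were 1 and 12. Of the 46 called genes that the rule for named genes selects, Kdm5b apart, 33 lost the call whichever library was left out, 11 without any of 3 libraries and 2 without either of 2; Kdm5b never lost it. A fit of only the 4 libraries called 1 gene each way, and median-ratio scaling called 32 higher and 86 lower.

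The 12 largest named increases were Ints7, Cbfa2t2, Rpl34, Tbrg1, Eif3c, Utp4, Spen, Nr2c2ap, Sh2b1, Nosip, Eif2b4 and Usp22, with log2 differences of 1.03 to 1.32. Ints7 (chromosome 1, 191575636 to 191623688, plus strand, protein coding), a subunit of the Integrator complex that ends small nuclear and other RNA polymerase II transcripts, was at 8.74 and 11.03 FPKM after Kdm5b mRNA, against 3.11 and 3.59 FPKM after water (1.32 ± 0.27, adjusted p = 0.0291, limma). Cbfa2t2, a corepressor of the ETO family, was at 26.9 and 24.3 FPKM after Kdm5b mRNA, against 9.30 and 10.1 FPKM after water (1.31 ± 0.28, adjusted p = 0.033). Both Kdm5b libraries were above both water libraries for these genes. Embryos injected once with water held 18.0 and 19.8 FPKM of Ints7 and 28.3 and 20.9 FPKM of Cbfa2t2, so the Kdm5b group stood within that range for Cbfa2t2 and short of it for Ints7. Usp22, the deubiquitinase of the SAGA coactivator, was at 9.78 and 11.5 FPKM after Kdm5b mRNA, against 4.50 and 4.89 FPKM after water (1.03 ± 0.23, adjusted p = 0.0365), with 45.6 and 34.1 FPKM in embryos injected once with water. Tbrg1, a nuclear partner of the tumour suppressor ARF, was at 11.7 and 13.7 FPKM after Kdm5b mRNA, against 5.54 and 4.51 FPKM after water (1.19 ± 0.26, adjusted p = 0.0349), with 48.5 and 38.7 FPKM after 1 injection of water. For Usp22 and Tbrg1 the higher Kdm5b level remained far below that of embryos without mutant Hdac1.

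Spen (chromosome 4, 141467890 to 141538597, minus strand, protein coding) went the other way relative to embryos without mutant Hdac1. This RNA-binding repressor, which recruits corepressors and acts in X inactivation, was at 54.3 and 54.3 FPKM after Kdm5b mRNA, against 26.5 and 22.9 FPKM after water (1.11 ± 0.26, adjusted p = 0.0452, limma). It was at 25.3 and 20.3 FPKM in embryos that received mutant Hdac1 once, against 7.14 and 3.55 FPKM with WT Hdac1. Spen was thus already higher with mutant Hdac1 and higher still after Kdm5b mRNA.

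The 12 largest named decreases were Pmis2, Tomm40l, Tmem119, Sectm1b, Prnd, Crnde, Col9a2, Krt8, Vsir, Cbr2, Stra8 and Hyal1, with log2 differences of −1.93 to −1.31. Krt8 (chromosome 15, 101996698 to 102004482, minus strand, protein coding), a keratin of simple epithelia and of the trophectoderm, was at 5.37 and 5.38 FPKM after Kdm5b mRNA, against 15.9 and 15.9 FPKM after water (−1.41 ± 0.23, adjusted p = 0.0123, limma). Embryos with mutant Hdac1 once held 17.4 and 18.5 FPKM of Krt8, against 0.299 and 0.363 FPKM with WT Hdac1. Tmem119, a membrane protein known from bone and microglia, was at 6.21 and 3.11 FPKM after Kdm5b mRNA, against 19.4 and 12.4 FPKM after water (−1.60 ± 0.27, adjusted p = 0.0131). Sectm1b, a membrane and secreted protein of immune cells, was at 1.33 and 1.63 FPKM after Kdm5b mRNA, against 6.71 and 5.38 FPKM after water (−1.50 ± 0.23, adjusted p = 0.009). Neither gene's groups overlapped, and in embryos with WT Hdac1 Tmem119 was listed at 0 and at 0.357 FPKM and Sectm1b at 0 in both libraries. Pmis2, a sperm protein, was at 1.99 and 0.999 FPKM after Kdm5b mRNA, against 9.68 and 7.12 FPKM after water (−1.93 ± 0.44, adjusted p = 0.0386). Stra8, which acts at entry into meiosis, was at 4.30 and 2.12 FPKM after Kdm5b mRNA, against 12.1 and 6.75 FPKM after water (−1.31 ± 0.27, adjusted p = 0.0319). Crnde, a long non-coding RNA, was at 3.65 and 5.62 FPKM after Kdm5b mRNA, against 18.4 and 11.2 FPKM after water (−1.47 ± 0.33, adjusted p = 0.0387). These transcripts were nearly absent from embryos injected once with water, at no more than 0.937 FPKM in any library, and all stayed above that level after Kdm5b mRNA. Their spread is estimated partly from groups in which they are at or near 0, so the SE may be too small. With a pseudocount of 0.1 none of these 6 was called (limma, adjusted p = 0.0714 for Krt8, 0.268 for Tmem119, 0.183 for Sectm1b, 0.28 for Pmis2, 0.259 for Stra8 and 0.327 for Crnde). None was called in a fit of only the 4 libraries.

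**Figure D2:**
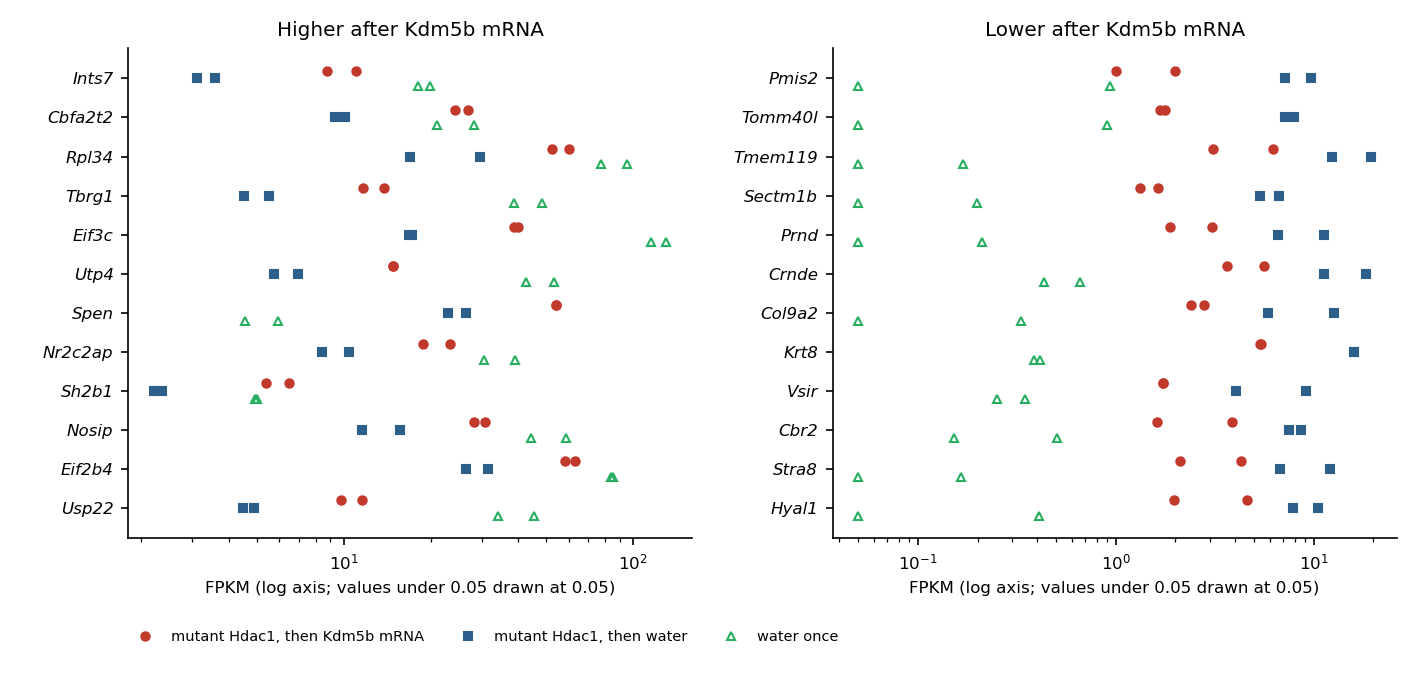
FPKM (log axis) of the 12 largest named increases and the 12 largest named decreases, chosen by these same values. Kdm5b, clone, predicted and pseudogene symbols, and genes under 5 FPKM on average in the group with more, were left out. Points are single libraries of embryos with mutant Hdac1 and then Kdm5b mRNA (circles) or water (squares), and of embryos with water once (triangles). Values under 0.05 are drawn at 0.05. The circles lie between the squares and the triangles for most genes; Sh2b1 and Spen are exceptions, Spen at 54.3 FPKM in both Kdm5b libraries, against 26.5 and 22.9 FPKM after water and 4.54 and 5.92 FPKM after water once.

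The bases upstream of the start are shown for the first 3 genes each way that have a single start in the RefSeq table (GRCm38.p6), because demethylation of H3K4 concerns promoters and such marks are known to gather over CpG-rich sequence. Each is the 250 bases before the start, 5′ to 3′ on the gene's strand, with every CpG in capitals. The increases are Ints7 at chr1:191575386-191575635 (plus strand, 25 CpG), Cbfa2t2 at chr2:154436234-154436483 (plus strand, 41 CpG) and Tbrg1 at chr9:37657313-37657562 (minus strand, 8 CpG). The decreases are Pmis2 at chr7:30671606-30671855 (minus strand, 5 CpG), Sectm1b at chr11:121063570-121063819 (minus strand, 6 CpG) and Crnde at chr8:92356121-92356370 (minus strand, 17 CpG).
Ints7: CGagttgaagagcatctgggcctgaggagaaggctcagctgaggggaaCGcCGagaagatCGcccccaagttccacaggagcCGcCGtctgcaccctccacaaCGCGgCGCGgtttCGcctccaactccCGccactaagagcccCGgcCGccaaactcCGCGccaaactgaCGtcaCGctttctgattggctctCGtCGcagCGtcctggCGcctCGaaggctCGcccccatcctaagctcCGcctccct
Cbfa2t2: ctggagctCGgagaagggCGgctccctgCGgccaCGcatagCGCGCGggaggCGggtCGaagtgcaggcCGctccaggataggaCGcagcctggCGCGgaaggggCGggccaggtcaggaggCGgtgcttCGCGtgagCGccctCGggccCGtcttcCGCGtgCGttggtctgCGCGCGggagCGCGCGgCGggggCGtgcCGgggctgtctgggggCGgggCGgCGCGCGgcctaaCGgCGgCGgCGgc
Tbrg1: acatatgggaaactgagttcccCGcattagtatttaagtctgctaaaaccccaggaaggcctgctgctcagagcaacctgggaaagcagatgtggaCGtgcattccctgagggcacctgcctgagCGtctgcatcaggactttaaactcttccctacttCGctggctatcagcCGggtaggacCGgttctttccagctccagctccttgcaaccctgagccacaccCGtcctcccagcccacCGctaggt
Pmis2: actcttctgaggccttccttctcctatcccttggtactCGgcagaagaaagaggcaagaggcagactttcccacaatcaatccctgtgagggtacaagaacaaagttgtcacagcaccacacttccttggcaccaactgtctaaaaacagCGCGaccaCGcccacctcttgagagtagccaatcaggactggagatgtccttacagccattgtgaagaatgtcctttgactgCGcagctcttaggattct
Sectm1b: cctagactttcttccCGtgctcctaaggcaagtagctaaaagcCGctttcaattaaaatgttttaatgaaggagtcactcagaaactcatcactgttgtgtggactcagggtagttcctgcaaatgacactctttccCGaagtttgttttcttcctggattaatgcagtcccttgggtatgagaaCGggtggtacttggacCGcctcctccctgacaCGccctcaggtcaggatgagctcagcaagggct
Crnde: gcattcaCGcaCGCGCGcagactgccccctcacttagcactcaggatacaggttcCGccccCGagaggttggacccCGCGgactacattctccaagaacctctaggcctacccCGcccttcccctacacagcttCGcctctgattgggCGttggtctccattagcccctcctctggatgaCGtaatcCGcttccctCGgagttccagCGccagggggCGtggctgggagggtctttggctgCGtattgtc
Over 32851 promoters of this length in that table the median was 6 CpG, 92.1% held at least 1 and 37.8% held 10 or more, so Ints7, Cbfa2t2, Tbrg1 and Crnde were above the median, Sectm1b was at it and Pmis2 was below it. Only 72.5% of the genes tested had an entry, because the table is not complete, so a comparison of the called sets is void and was not made. A CpG count describes these letters and says nothing of the mark in these embryos.

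The clearest pattern lay in how the change after Kdm5b mRNA was arranged over the effect of mutant Hdac1. That effect was read in the embryos injected once, mutant against WT Hdac1, whose 4 libraries have no part in the Kdm5b comparison; it called 57.9% of the genes, 24.8% lower and 33.0% higher. Over all genes tested, 0.626% were higher and 0.977% lower after Kdm5b mRNA, and 50.1% had a difference above 0. Of the 3533 genes lower with mutant Hdac1, 78 (2.21%) were higher and 0 lower, and 80.7% had a difference above 0. Of the 4697 genes higher with mutant Hdac1, 5 were higher and 121 (2.58%) lower after Kdm5b mRNA, and 31.7% had a difference above 0. Genes nearly silent without mutant Hdac1 can enter this class through the water libraries alone, which favours lower calls. With a minimum of 5 FPKM, 72 were lower. The same limit holds for all sets of such genes below. Of the 5992 genes not called in mutant against WT Hdac1, 6 were higher and 18 lower. Genes lower with mutant Hdac1 thus held 87.6% of all higher calls, and genes higher with mutant Hdac1 held 87.1% of all lower calls.

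The shift was small beside the mutant effect. Genes lower with mutant Hdac1 had a median difference of 0.25 on the log2 scale after Kdm5b mRNA (interquartile range 0.06 to 0.43), and each of the 4 pairs of a Kdm5b and a water library gave a median between 0.14 and 0.37. Their median difference in mutant against WT Hdac1 was −1.24, so the shift amounted to 20.2% of it. Genes higher with mutant Hdac1 had a median of −0.19 (library pairs −0.27 to −0.11) against 1.44 in the mutant comparison, or 13.5%. With a minimum of 5 FPKM the median of the genes higher with mutant Hdac1 was −0.0867. The number of injections and the load of Hdac1 mRNA differ from those of the embryos injected once, so the shares compare sizes only.

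Level by level, the 2 groups kept apart. Over the genes lower with mutant Hdac1 the median log2(FPKM + 1) was 3.93 and 4.07 in the Kdm5b libraries, against 3.65 and 3.798 in the water libraries, and 4.80 and 4.75 in embryos injected once with water. Over the genes higher with mutant Hdac1 it was 2.72 and 2.78 in the Kdm5b libraries, against 3.10 and 2.97 in the water libraries, and 1.08 and 1.203 in embryos injected once with water. In both sets the Kdm5b libraries lay on the side of the embryos without mutant Hdac1 and nearer to the water libraries. Against embryos injected once with water, 4989 genes were higher and 2478 lower after Kdm5b mRNA (52.5% called, 35.1% higher and 17.4% lower), and 5483 were higher and 2950 lower after the second injection of water (59.3% called, 38.6% higher and 20.7% lower). These comparisons share the libraries of the embryos injected once and are given side by side only. The genes were filtered on the 4 libraries with mutant Hdac1, so genes expressed only after water once could not enter, which favours higher over lower calls.

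**Figure D3:**
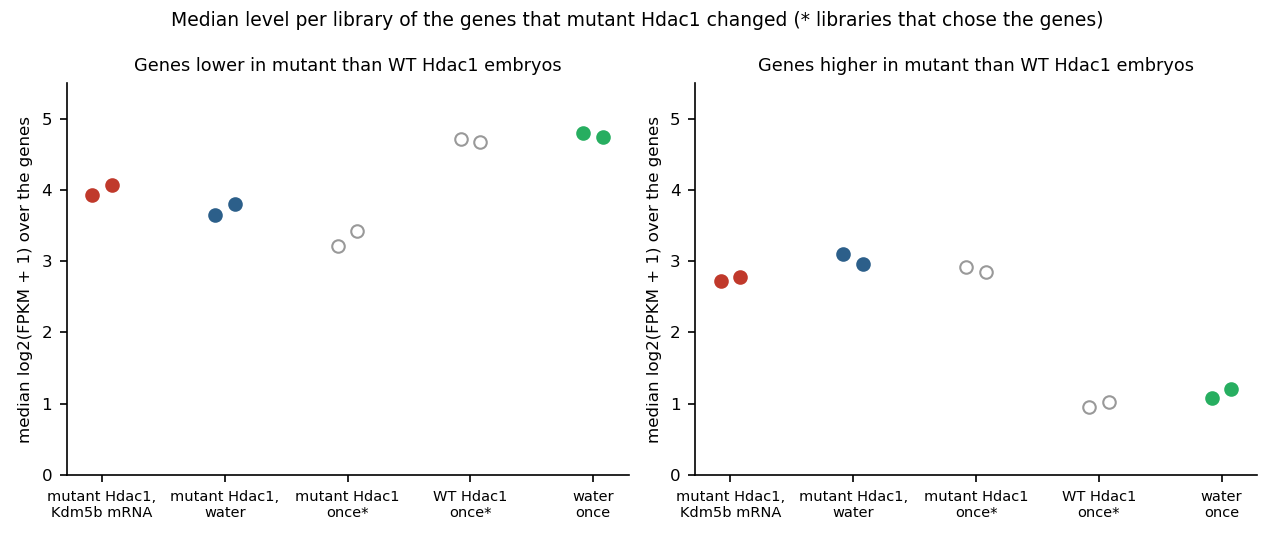
Median log2(FPKM + 1) in each library (points) over the 3533 genes lower (left) and the 4697 genes higher (right) in mutant than in WT Hdac1 embryos. The Kdm5b libraries stand at 3.93 and 4.07, against 3.65 and 3.798 in the water libraries, on the left, and at 2.72 and 2.78, against 3.10 and 2.97, on the right; open points are the libraries that chose the genes.

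The change after Kdm5b mRNA followed the size of the mutant effect step by step. In the 50 genes lower by over 3 on the log2 scale with mutant Hdac1 the median after Kdm5b mRNA was 0.63 and 88% of genes were above 0. It was 0.41 in the 487 genes lower by 2 to 3, 0.27 in the 1864 lower by 1 to 2 and 0.14 in the 1551 lower by 0.5 to 1. In the 4830 genes within 0.5 either way it was −0.02. Among genes higher with mutant Hdac1 it was −0.10 for the 1884 higher by 0.5 to 1, −0.20 for the 2269 higher by 1 to 2, −0.32 for the 911 higher by 2 to 3 and −0.40 for the 376 higher by over 3, where 17.02% were above 0. Across genes the 2 differences correlated with r = −0.46 (rho = −0.46, 14222 genes, which are not independent replicates). The pairs of single libraries gave r = −0.44 and −0.45 with water replicate 1, and the weaker −0.29 and −0.33 with water replicate 2. No library is shared between the 2 differences. The limit on genes that enter through the water libraries holds for the bins higher with mutant Hdac1 too.

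**Figure D4:**
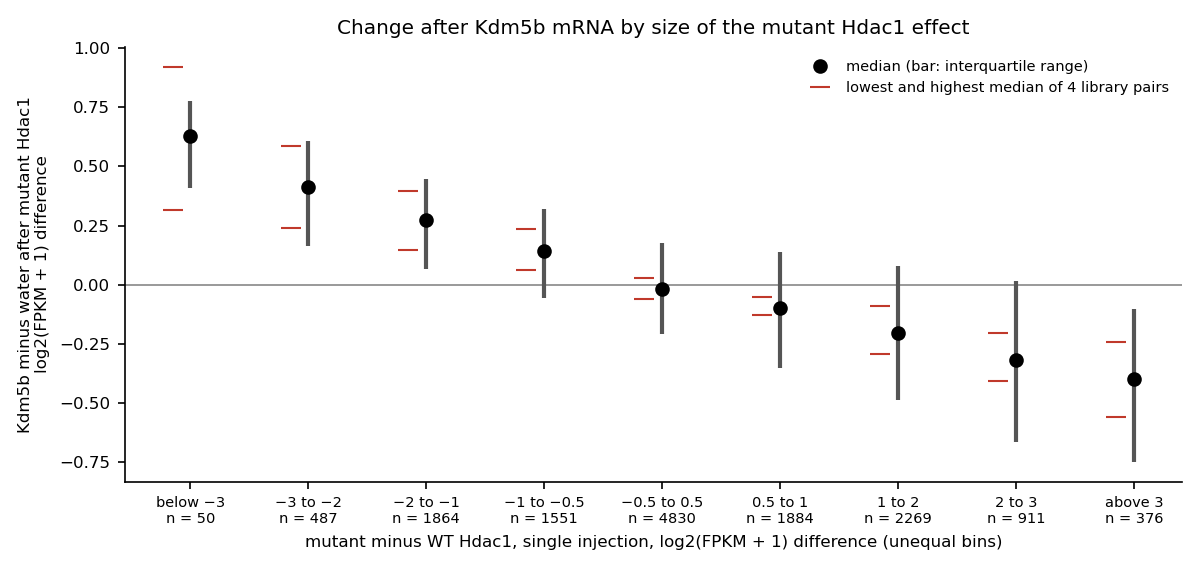
Median difference after Kdm5b mRNA against water (points), with the interquartile range over genes (bars) and the lowest and highest median of the 4 library pairs (red ticks), in bins of the mutant against WT Hdac1 difference; both are log2(FPKM + 1) differences. The medians step down from 0.63 at the left to −0.40 at the right.

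Most calls lay among genes that mutant Hdac2 and FK228 changed too. Of all genes tested, 0.626% were higher and 0.977% lower after Kdm5b mRNA. Of the 2934 genes lower with mutant Hdac1, with mutant Hdac2 and with FK228, 76 were higher and 0 lower (median 0.28). Of the 3288 higher in all 3 comparisons, 2 were higher and 117 lower (median −0.26). Of the 236 genes called lower with mutant Hdac1 and in neither of the others, 0 were called either way (median 0.02), and of the 564 called higher with mutant Hdac1 and in neither of the others, 1 was higher and 2 lower (median −0.04). The counts in these smaller sets are near the shares over all genes, and nothing is read from them. The mutant Hdac1 effect was also weaker there. Its median was −0.83, against −1.34 in the genes lower in all 3, and 0.90, against 1.69 in the genes higher in all 3. The comparison of mutant Hdac2 called 58.2% of genes, 25.8% lower and 32.4% higher. That of FK228 called 62.3%, 30.3% lower and 31.9% higher. Neither has a library in common with the Kdm5b differences, but the spread behind all these calls comes from the same fit.

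Most of the higher calls were genes that rise between the early and the late 2-cell stage. From 24 h to 36 h in WT Hdac1 embryos, 63.4% of the genes were called, 33.3% higher at 36 h and 30.1% lower. Of the 4730 that rose, 74 were higher and 7 lower after Kdm5b mRNA (median 0.19), where 0.626% and 0.977% of all genes were. Nearly all of these calls were also lower with mutant Hdac1: of 2562 such genes, 71 were higher and 0 lower (median 0.29), whereas of 1484 that rose without a call in mutant against WT Hdac1, 2 were higher and 3 lower (median 0.08). Of the 684 that rose and were higher with mutant Hdac1, 1 was higher and 4 lower (median 0.01). Of the 2509 genes higher with mutant Hdac1 that had no call between the stages, 4 were higher and 83 lower (median −0.29). The stage and the mutant comparison share the WT late libraries, so these classes are not independent of each other. Neither shares a library with the Kdm5b differences, but the spread behind all these calls comes from the same fit.

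For ribosomal proteins nearly every difference was above 0, though few passed the test. Of 79 cytosolic ribosomal protein genes tested, of 81 listed, 4 were called higher and 0 lower, where 0.626% of all genes were called higher. With a library left out there were 0 or 1 calls. In all, 78 had a difference above 0, and for 62 the Kdm5b libraries lay above both water libraries, against 25.9% of all genes; their median was 0.47, against 0.000638 over all genes. Rpl34 was at 52.5 and 60.2 FPKM after Kdm5b mRNA, against 29.5 and 16.9 FPKM after water (1.29 ± 0.22, adjusted p = 0.0136, limma). Rpl28 was at 110 and 130 FPKM after Kdm5b mRNA, against 70.2 and 74.6 FPKM after water (0.72 ± 0.12, adjusted p = 0.0131). Rpl35 was higher by 0.61 on the log2 scale. Ribosomal protein genes have many processed pseudogenes, with which they can share reads.

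Of 111 ribosome biogenesis factors tested, of 112 listed, 7 were called higher and 0 lower, where 0.626% of all genes were called higher, and 107 had a difference above 0 (median 0.49). Without water replicate 2 there were 2 calls, without any of the other libraries 0, and with a pseudocount of 0.1 there were 3. Utp4, of the small subunit processome, was at 14.8 and 14.9 FPKM after Kdm5b mRNA, against 5.74 and 6.93 FPKM after water (1.11 ± 0.17, adjusted p = 0.009, limma). Nolc1, a nucleolar phosphoprotein, was at 52.0 and 57.7 FPKM after Kdm5b mRNA, against 26.3 and 31.5 FPKM after water (0.90 ± 0.15, adjusted p = 0.0123). The same genes stood at 53.2 and 42.6 FPKM and at 119 and 108 FPKM in embryos injected once with water. Nop16 and Imp3, of the large and the small subunit pathway, were higher by 0.97 and 0.96. The 3 further calls were Gnl3, Rpf1 and Ubtf, the last a factor of RNA polymerase I, at 0.88, 0.83 and 0.72; these 3 fall outside the rule for named genes and were named after their values were seen. In mutant against WT Hdac1, 107 of the 111 were lower and 0 higher (median −1.76), the lowest median of the lists.

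Lists for translation initiation and splicing had lower medians. Of 44 translation initiation factors, 4 were higher and 0 lower (median 0.36), where 0.626% of all genes were called higher; without water replicate 2 there were 2 and without any of the other libraries 0. Eif3c (chromosome 7, 126546455 to 126566411, minus strand, protein coding), a core subunit of eIF3, was at 38.6 and 40.1 FPKM after Kdm5b mRNA, against 16.8 and 17.3 FPKM after water (1.16 ± 0.19, adjusted p = 0.0123, limma). Eif2b4, of the exchange factor that recharges eIF2, Eif3h and the poly(A)-binding protein gene Pabpc1 were higher by 1.03, 0.72 and 0.63. Of 67 splicing factors, 1 was higher and 0 lower (median 0.31). It was Dhx8, a helicase that releases mRNA from the spliceosome, at 0.79 ± 0.17. Of 43 proteasome subunits 0 were called, with a median of 0.25.

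Genes of the corepressor complexes and of the histone deacetylases held 3 calls, all higher. Of 35 corepressor complex genes, 2 were higher and 0 lower (median 0.22), where 0.626% of all genes were called higher; with any 1 library left out, a pseudocount of 0.1, median-ratio scaling or quantile normalization there were 0. Mta2, of NuRD, was at 73.7 and 86.0 FPKM after Kdm5b mRNA, against 43.7 and 49.1 FPKM after water (0.77 ± 0.17, adjusted p = 0.0349, limma), and Suds3, of the SIN3 complex, was higher by 0.58 ± 0.12. Of 16 histone deacetylases, 1 was higher, the NAD-dependent Sirt1, at 50.1 and 52.6 FPKM after Kdm5b mRNA, against 27.7 and 29.0 FPKM after water (0.84 ± 0.16, adjusted p = 0.0273). Sirt1 and Mta2 were at 115 and 102 FPKM and at 235 and 220 FPKM in embryos injected once with water, above the Kdm5b group in both cases. Of 25 genes of H3K4 methyltransferase complexes 0 were called (median 0.16), and of 23 acetyltransferases and bromodomain readers 0 were called (median 0.11).

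Among transcripts of the 2-cell burst, an early and short-lived programme, the calls were decreases. Of 49 burst genes tested, 4 were lower and 0 higher, where 0.977% of all genes were called lower, and 12 had a difference above 0 (median −0.26). With any 1 library left out, or with a pseudocount of 0.1, there were 0 calls, and with no filter there were 2. Zscan4e (chromosome 7, 11306378 to 11310682, minus strand), a protein-coding copy, was at 30.3 and 25.9 FPKM after Kdm5b mRNA, against 77.9 and 60.5 FPKM after water (−1.26 ± 0.26, adjusted p = 0.0297, limma). Zscan4c was at 34.9 and 34.8 FPKM after Kdm5b mRNA, against 71.3 and 75.05 FPKM after water (−1.05 ± 0.21, adjusted p = 0.0297), and Zscan4b was lower by −1.24 ± 0.28. ZSCAN4 proteins act at telomeres and mark the 2-cell state; their genes are near-identical copies that share reads, so the sum is the safer value. The 5 copies summed to 254 and 229 FPKM after Kdm5b mRNA, against 520 and 462 FPKM after water, with 82.3 and 79.5 FPKM in embryos injected once with water. Zfp750, a zinc finger factor of epidermal differentiation, was the other call, at −0.92 ± 0.22.

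Genes of later lineages mostly had differences below 0, with few single calls. Of 87 developmental transcription factors tested, of 104 listed, 3 were lower and 0 higher, where 0.977% of all genes were called lower (0 with any 1 library left out or with a pseudocount of 0.1, and 1 with either other scaling, with no filter or with the replicate block). Of the 87, 6 had a difference above 0, and for 61 the Kdm5b libraries lay under both water libraries, against 25.5% of all genes (median −0.42). Osr2, a factor of limb and palate, was at 33.6 and 33.7 FPKM after Kdm5b mRNA, against 62.5 and 61.8 FPKM after water (−0.87 ± 0.19, adjusted p = 0.0365, limma). Runx1, of blood formation, was at 2.48 and 2.99 FPKM after Kdm5b mRNA, against 6.97 and 6.49 FPKM after water (−1.05 ± 0.25, adjusted p = 0.047), and Nkx2-5, of the heart, was lower by −0.92 ± 0.21. In mutant against WT Hdac1, 79 of the 87 were higher and 2 lower. A gene that is silent in normal embryos enters this list only through embryos in which it is on.

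Of 19 trophectoderm and endoderm regulators tested, of 24 listed, Krt8 was the only call (0.977% of all genes were called lower), and 14 had Kdm5b libraries under both water libraries, against 25.5% of all genes (median −0.42). The limit on genes that enter through embryos in which they are on holds here too. Several regulators that mutant Hdac1 raises did not pass the test. Cdx2, the trophectoderm homeobox factor, was at 14.2 and 13.5 FPKM after Kdm5b mRNA, against 13.3 and 16.9 FPKM after water (−0.12 ± 0.23, adjusted p = 0.864, limma). Hand1 was at 28.1 and 25.9 FPKM after Kdm5b mRNA, against 29.2 and 24.7 FPKM after water (0.01 ± 0.32, adjusted p = 0.995). Both overlapped between groups, although their differences in mutant against WT Hdac1 were 3.26 and 3.48; they were named after their values were seen.

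The 4 genes with the largest mutant effects in earlier results of these data did not pass the test. Bmp4, a secreted morphogen, was at 33.8 and 45.2 FPKM after Kdm5b mRNA, against 50.3 and 47.8 FPKM after water (−0.32 ± 0.26, adjusted p = 0.589, limma), with 0.155 FPKM and a listed 0 after water once. Gata2, a factor of blood stem cells and trophoblast, was at 56.7 and 48.4 FPKM after Kdm5b mRNA, against 89.96 and 61.4 FPKM after water (−0.50 ± 0.23, adjusted p = 0.281), with 1.06 and 2.10 FPKM after water once. Fcf1, of small subunit maturation, was at 4.03 and 4.93 FPKM after Kdm5b mRNA, against 2.37 and 2.64 FPKM after water (0.64 ± 0.33, adjusted p = 0.347), with 69.4 and 55.7 FPKM after water once. Rpl37a was at 29.7 and 61.8 FPKM after Kdm5b mRNA, against 6.25 and 15.2 FPKM after water (2.02 ± 0.59, adjusted p = 0.0914), with 111 and 165 FPKM after water once. The Kdm5b and water libraries did not overlap for these 4, as for 51.4% of all genes, and the level after water once lay beyond the Kdm5b libraries.

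Many lists held 1 call or none, where 1.60% of all genes were called, and nothing is read from such counts. Of 31 Obox genes and other activators, Zscan5b, a zinc finger gene, was higher, at 126 and 144 FPKM after Kdm5b mRNA, against 86.8 and 93.7 FPKM after water (0.58 ± 0.13, adjusted p = 0.0387, limma; list median 0.16). Of 42 cell cycle genes, Incenp, of the chromosomal passenger complex, was higher by 0.54 ± 0.10 (list median 0.13). No gene was called among 53 maternal oocyte factors (median −0.13), 22 pluripotency factors (−0.09), 42 DNA replication genes (0.18), 73 nuclear-encoded respiratory chain subunits (0.17), 31 Polycomb subunits (0.12), 16 genes of DNA methylation (0.19) or 25 imprinted genes (−0.01). The same held for the signalling and stress lists: 27 BMP, TGF-beta and Id genes (0.03), 26 neuronal and secretory genes (0.01), 24 HDAC inhibitor-induced genes (0.02), 33 p53 targets (−0.02), 35 genes of the integrated stress response (0.05), 19 heat shock genes (0.11) and 27 immediate-early genes (−0.08). Of these, the immediate-early and HDAC inhibitor-induced lists had medians of 2.13 and 0.997 in mutant against WT Hdac1.

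**Figure D5:**
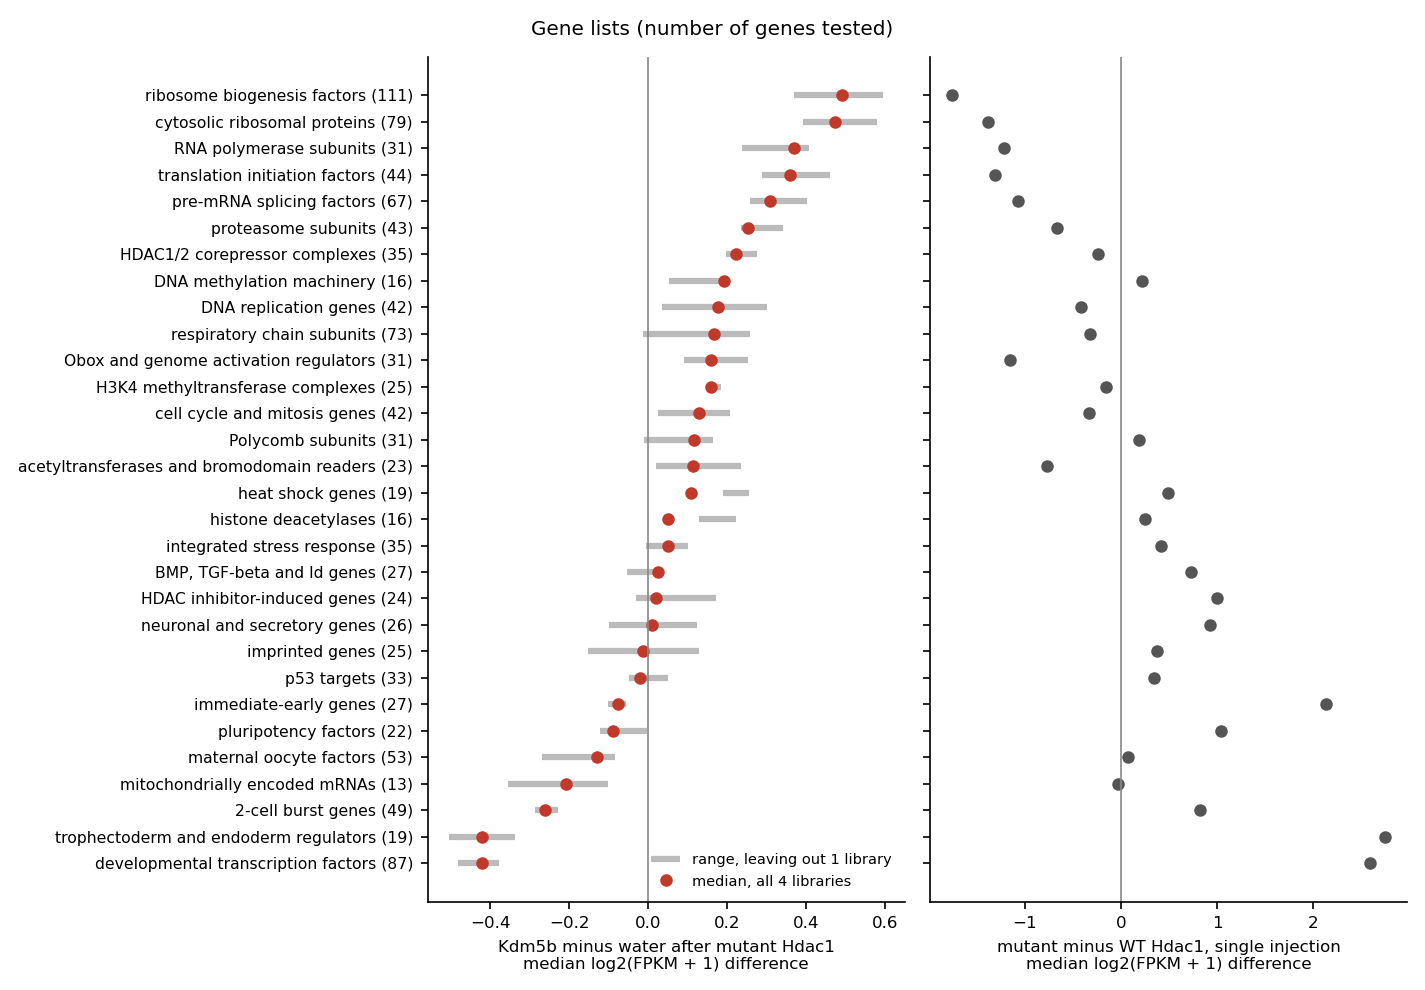
Left, median log2(FPKM + 1) difference after Kdm5b mRNA against water for each gene list with at least 10 genes tested (points), with the range when 1 of the 4 libraries is left out (grey; the filter is applied again, so the range need not hold the median). Right, the median of the same genes in mutant against WT Hdac1. Ribosome biogenesis (0.49) and ribosomal proteins (0.47) stand highest at the left panel's top and lowest in the right panel, and developmental transcription factors (−0.42) and trophectoderm and endoderm regulators (−0.42) the reverse.

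A minority of calls lay outside the opposition to mutant Hdac1. The 5 genes higher in both comparisons were Spen, Rundc3a, Sik1, AU022252 and Gm12517; all but Spen were named after their values were seen. Sik1, a salt-inducible kinase, was at 24.3 and 26.2 FPKM after Kdm5b mRNA, against 15.7 and 13.0 FPKM after water (0.78 ± 0.18, adjusted p = 0.044, limma), with 5.20 and 5.31 FPKM after water once. Of the 6 genes higher without a call in mutant against WT Hdac1, Sh2b1, an adaptor of receptor kinases, was at 5.41 and 6.48 FPKM after Kdm5b mRNA, against 2.35 and 2.21 FPKM after water. Its level after water once was 5.01 and 4.95 FPKM. Ptpn12, a tyrosine phosphatase, was at 17.5 and 14.8 FPKM after Kdm5b mRNA, against 7.80 and 8.04 FPKM after water (0.94 ± 0.21, adjusted p = 0.036), with 7.03 and 10.1 FPKM after water once, and was also named after its values were seen. Of the 18 lower, most were under 1 FPKM in both libraries of embryos injected once with water. The spread of such a gene is estimated largely from values at or near 0. The same limit holds for Gm14719, Gm15764 and Gm10322 among the 6 higher, which were listed at 0 in both of those libraries.

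The libraries differed in more than single genes. Genes at 1 FPKM or more numbered 13412 and 13635 in the Kdm5b libraries, against 14411 and 14031 in the water libraries and 11352 and 11941 in embryos injected once with water. mRNAs encoded by mitochondrial DNA held 10.8% and 9.56% of the summed FPKM in the Kdm5b libraries, against 15.2% and 11.01% in the water libraries; all 13 had a difference below 0 and 0 were called (median −0.21, and 0 with quantile normalization). The part of this in the results was not tested. With quantile normalization or median-ratio scaling the medians of the ribosomal protein list were 0.36 to 0.42 and those of the developmental factors −0.46 to −0.42. Replicates correlated across genes with r = 0.976 (Kdm5b) and 0.968 (water), against 0.949 to 0.964 between groups. Called genes and all genes tested had alike transcript GC content, with medians of 49.9% for the higher calls, 50.2% for the lower and 50.1% for all. The higher calls were more abundant, with a median of 23.9 FPKM in the water libraries, against 7.68 FPKM over all genes, and the lower calls less so, at 5.71 FPKM.

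The libraries were also read for markers of other cells that an embryo sample could hold. Of 13 blood cell markers 7 were tested and 0 called; they summed to 102 and 94.3 FPKM after Kdm5b mRNA, against 141 and 148 FPKM after water, with Hbb-bs and Hbb-bt at 0 in all 4 libraries and Hba-a1, Hba-a2, Alas2, Cd74, Lyz2, Cd52 and Itgam at 1 FPKM or more, and 6 of the 7 were higher with mutant than with WT Hdac1. Of 18 cumulus and granulosa cell markers 4 were tested and 0 called, at 28.9 and 28.2 FPKM after Kdm5b mRNA, against 29.9 and 35.3 FPKM after water, with Fshr and Ereg at 0 and Tnfaip6, Foxl2, Amhr2 and Areg at 1 FPKM or more. Of 10 sperm markers 2 were tested and 0 called, at 16.3 and 10.5 FPKM after Kdm5b mRNA, against 22.4 and 13.9 FPKM after water. Smcp was at 0, and Tnp1 and Ldhc were at 1 FPKM or more. All markers named at that level reached it in at least 2 of the 4 libraries. Under 1 FPKM in all 4 libraries were 6 of the blood, 13 of the cumulus and granulosa and 6 of the sperm markers. The part of such cells in the results was not tested. In whole embryos, fewer cells and less RNA per cell cannot be told apart.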

How the data were processed

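PolyA RNA of whole mouse embryos was sequenced; groups came from the labels. The authors deposited a table of FPKM with a row for each gene. Per the submitters' processing notes, Trimmomatic, HISAT2, featureCounts, Cufflinks and DESeq2 are named, with build GRCm38; their versions and order are not stated in those sources. FPKM are not counts, so DESeq2 was not run here, sequencing depth is unknown and no counting intervals are given. FPKM divide by gene length and by library total, so a change in abundant genes shifts all others. The labels describe no strand-marking step, so reads of overlapping or antisense genes may be mixed.

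Genes with at least 1 FPKM in at least 2 of the 4 libraries compared were tested on log2(FPKM + 1), with a pseudocount of 1, a scale that understates changes of low genes. The model was fitted with limma 3.58.1 (R 4.3.3) over the 22 mouse libraries, with 1 coefficient for each of the 11 groups, 11 residual degrees of freedom and a variance trend, so groups outside the comparison help set the spread. Tests were two-sided, with Benjamini-Hochberg adjustment over the 14222 genes and calls at an adjusted p under 0.05. Python 3.11.15, pandas 2.3.3 and matplotlib 3.10.9 were used for tables and plots.

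The comparison, the 31 gene lists and 3 marker lists, and the rules were chosen with earlier results of these data known. Named genes were Kdm5 genes, Hdac1 and Hdac2, up to 12 calls each way by size with no overlap between groups, at least 5 FPKM on average in the group with more and no clone symbol, up to 4 called members per list, up to 6 each way with a mutant effect of at least 2 on the log2 scale and the opposite change after Kdm5b mRNA, and Bmp4, Gata2, Fcf1 and Rpl37a. Coordinates are from GENCODE M21 on GRCm38, matched by symbol for 14008 of the genes tested. Alternatives covered the pseudocount, filters, scaling, the libraries in the fit, the variance trend, the replicate number and each library left out. Bovine libraries were not used here, and a few genes that these rules select are not reported here.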

Additional observations from a re-analysis of the deposited data

How the results depend on the processing

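Kdm5b kept its call in every alternative, and all calls kept their sign wherever they were tested. Only a change of scaling could have reversed a sign, because the groups did not overlap for any call. The number of calls was far less stable. There were 89 higher and 139 lower genes as reported, 10 and 4 with a pseudocount of 0.1, 46 and 60 with quantile normalization, 32 and 86 with median-ratio scaling, 1 and 1 in a fit of the 4 libraries alone, and 73 lower with a minimum of 5 FPKM. The share of higher calls was 39.0% as reported, 71.4% with the pseudocount of 0.1, 27.1% with median-ratio scaling, 50% in the fit of 4 libraries, 54.9% with the 5 FPKM minimum and 25.6% without the variance trend. Leaving out single libraries gave 1 to 26 higher and 2 to 46 lower genes (without Kdm5b replicate 1, 2 and 9; without Kdm5b replicate 2, 1 and 12; without water replicate 1, 4 and 2; without water replicate 2, 26 and 46); these fits have a lone library in 1 group, assumed to vary like the other groups. Of the 46 calls that the rule for named genes selects beside Kdm5b, 33 lost the call whichever library was left out, 11 on leaving out any of 3 and 2 on leaving out either of 2.

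The 78 genes lower with mutant Hdac1 and higher after Kdm5b mRNA were 8 with the pseudocount of 0.1, 40 with quantile normalization, 30 under median-ratio scaling, 1 in the fit of 4 libraries and 1 to 22 with a library left out. The 121 genes higher with mutant Hdac1 and lower after Kdm5b mRNA were 2, 53, 77 and 0 in the same order, 72 with a minimum of 5 FPKM, 188 without the variance trend and 1 to 44 with a library left out. The median of the genes higher with mutant Hdac1 was −0.0867 with a minimum of 5 FPKM; the alternatives for these medians were added after seeing the data. The log2 difference of Hdac1 changed sign, to 0.11 with quantile normalization, and ran from −0.124 to 0.0633 (without water replicate 1) with a library left out; it was never called. The cause of these changes was not tested.

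A replicate block gave 83 higher and 140 lower genes, 203 of them calls as reported. The replicate numbers share only a number: deviations of same-numbered libraries correlated with r = 0.0897 over 2 pairs.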

Other observations

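The pseudogenes of Obox4, a homeobox gene of the 2-cell stage, were noticed after their values were seen. The 31 copies named Obox4-ps in the table, with no filter, summed to 111 and 101 FPKM after Kdm5b mRNA, against 197 and 198 FPKM after water, with 35.8 and 44.3 FPKM in embryos injected once with water. Near-identical copies share reads, so their single values are uncertain. A large part of the sums is Obox4-ps35, which is annotated as a long non-coding RNA and was not lower. It was at 60.7 and 56.5 FPKM after Kdm5b mRNA, against 46.9 and 57.5 FPKM after water (0.17 ± 0.21). Embryos injected once with water held 26.2 and 36.2 FPKM of it.

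By kind of gene, 84 of 12376 protein-coding genes were higher and 117 lower. Of 916 pseudogenes, 3 were higher and 10 lower, and of 665 long non-coding genes, 2 were higher and 8 lower. Over all genes tested, 0.626% were higher and 0.977% lower. Whether the kinds of gene differ was not tested, and nothing is read from these counts. The lower calls came from shorter genes, with a median span of 7.91 kb, against 14.9 kb for the higher calls and 19.02 kb over all genes tested.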
